A study of Homo sapiens with 2 samples.

Results

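The miR-29 family comprises the human miRNAs hsa-miR-29a, hsa-miR-29b and hsa-miR-29c, written without the species prefix from here on. Its members were taken as every entry of the count table whose name is one of these stems, with or without a copy number and an arm, and 7 of 2904 entries met that rule. The 7 entries are 3 guide (3p) arms and 4 passenger (5p) arms. The libraries came from BEAS-2B, an immortalised wild-type line of human bronchial epithelial cells grown with fetal bovine serum. One group received vehicle and the other manganese, both for 24 h, and each group held 1 library. Neither the manganese dose nor any pooling of cultures is stated in the labels. Every difference given here therefore compares 2 libraries and has no replicate check, so no p-value is given.

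Each miR-29 hairpin is cut into a pair of arms, and the 3p arm is the one usually loaded into Argonaute to silence mRNAs. The family is best known for targeting collagens and other extracellular matrix genes, DNA methyltransferases and the survival factor MCL1. In lung it is known as a restraint on fibrosis, and its transcription is known to be lowered by TGF-beta and by MYC. Manganese is an essential trace metal that is toxic in excess, and the comparison asks how exposure to it changes the miRNA profile of airway epithelial cells.

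The family is encoded by 4 hairpins at a pair of loci, all on the minus strand of GRCh38. MIR29A (chr7:130876747-130876810) and MIR29B1 (chr7:130877459-130877539) lie 648 bases apart on chromosome 7. Both overlap exons of the long non-coding RNA gene LINC-PINT on the same strand in the GENCODE annotation. MIR29C (chr1:207801852-207801939) and MIR29B2 (chr1:207802443-207802523) lie 503 bases apart on chromosome 1, in exons of the host gene MIR29B2CHG. The mature sequences are shown because the 3p arms share a seed while the 5p arms, which separate the hairpins, do not. They are from RefSeq (GRCh38.p14), which held all 7 mature names, and are written 5′ to 3′ with the seed, bases 2 to 8, in capitals.
miR-29a-3p: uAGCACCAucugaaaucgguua
miR-29b-3p: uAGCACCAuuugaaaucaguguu
miR-29c-3p: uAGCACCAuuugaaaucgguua
miR-29a-5p: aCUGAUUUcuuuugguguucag
miR-29c-5p: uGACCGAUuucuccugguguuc
miR-29b-1-5p: gCUGGUUUcauauggugguuuaga
miR-29b-2-5p: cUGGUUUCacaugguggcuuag

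The 3 guide arms carried 1 seed, which no other mature miRNA in the RefSeq table had. The 4 passenger arms carried 4 different seeds, none of them shared with another mature miRNA there. Counted from 1 at the 5′ end, miR-29a-3p and miR-29c-3p differed by the single substitution C10U. Against miR-29a-3p, miR-29b-3p had C10U, G18A, U21G and A22U in the 22 bases compared, plus 1 further base at its 3′ end. The last 6 bases of miR-29b-3p are AGUGUU, known from studies of human cells as a nuclear import element. Of 2370 mature names, 13 held these letters anywhere and 2 ended with them (0.0844%), the other being miR-519e-3p, which was listed at 0 in both libraries. The passenger arms of the miR-29b copies aligned with an offset of 1 base and had U11C and U19C in the 22 bases compared, with positions counted on miR-29b-1-5p. The offset gives the pair different seeds. The mature miR-29b-3p is identical at both loci, so its counts cannot be divided between them.

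A pair of the hairpins is shown because the arms discussed in the results sit in them, with the mature arms in capitals, 5p first.
MIR29B1: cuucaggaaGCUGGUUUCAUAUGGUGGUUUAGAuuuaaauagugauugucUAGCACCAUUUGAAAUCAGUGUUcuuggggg
MIR29C: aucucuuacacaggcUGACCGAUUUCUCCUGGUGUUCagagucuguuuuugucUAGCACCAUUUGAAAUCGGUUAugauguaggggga

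The control library held 1064179 counts and the manganese library 1091070, so that 1 count was worth 0.921 and 0.935 CPM after TMM scaling (scaled CPM below). Of the 7 epithelial markers 3 were measured, meaning at least 20 counts over both libraries. Their sum over all 7 was 103 scaled CPM in the control and 209 with manganese, miR-203a-3p was at 0 in both libraries and miR-141-3p at 0 in the control. Blood cell markers took 0.908% of control counts and 16.2% of manganese counts, mostly miR-486-5p. The sum of the 5 mesenchymal markers was 48.8 and 404 scaled CPM, with miR-199a-5p and miR-214-3p at 0 in both libraries, and that of the 2 endothelial markers was 27.6 and 43.9. Both libraries are labelled as this single cultured line, and whether RNA from any other source added to the miR-29 values was not tested.

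The guide arm miR-29a-3p made up most of the family and was almost level between the libraries. Its count was 3581 in the control and 3331 with manganese, or 3299 and 3114 scaled CPM. It was the 29th most abundant entry in the control and the 28th with manganese. This arm took 88.4% of control family counts (exact Clopper-Pearson 95% interval 87.4 to 89.4) and 87.6% of those with manganese (86.5 to 88.6). The fold, manganese over control, was 0.944, with an exact conditional binomial 95% interval of 0.900 to 0.990 that covers counting error only. Its side of 1 depended on the scaling, since it was 1.07 both when the 5 most abundant entries and when the blood cell markers were left out of the library totals. Those totals moved the log2 fold at the median of the 403 measured entries from −0.08 to 0.10, by 0.19 and 0.18.

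The other guide arms were scarce beside it. For miR-29b-3p the counts were 98 and 124, or 90.3 and 116 scaled CPM, a fold of 1.28 (0.977 to 1.69). For miR-29c-3p they were 69 and 52, or 63.6 and 48.6 scaled CPM, a fold of 0.765 (0.523 to 1.11). Both intervals include 1-fold. That of miR-29c-3p did so under all 5 scalings, whereas the fold of miR-29b-3p was 1.46 (1.11 to 1.92) without the 5 most abundant entries, or without the blood cell markers, in the totals. Of the counts of miR-29a-3p and miR-29c-3p together, miR-29c-3p held 1.89% (1.47 to 2.39) of them in the control library and 1.54% (1.15 to 2.01) in the manganese library. These arms differ by 1 base, and how many mismatches the counting allowed is not stated in the labels, so reads of the abundant arm assigned to the rare one cannot be told apart from its own. Together the 3p arms, which share the seed, had 3748 and 3507 counts and ranked 17th of 695 seeds with counts in each library.

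Among passenger arms, miR-29c-5p of chromosome 1 was lower with manganese and miR-29b-1-5p of chromosome 7 was higher. The counts of miR-29c-5p were 24 in the control and 7 with manganese, or 22.1 (14.2 to 32.9) and 6.54 (2.63 to 13.5) scaled CPM with exact Poisson 95% intervals. That is 3.38-fold lower (1.41 to 9.29), and the intervals of the 2 libraries do not overlap. The counts of miR-29b-1-5p were 164 and 213, or 151 and 199 scaled CPM, 1.32-fold higher (1.07 to 1.63) but short of 2-fold. Those of miR-29a-5p were 109 and 74, or 100 and 69.2 scaled CPM, 1.45-fold lower (1.07 to 1.98). Under those same totals the fold of miR-29a-5p was 0.783, with intervals of 0.575 to 1.06 that include 1-fold. The remaining arm was miR-29b-2-5p, at 5 counts against 2, and its ratio of 0.406 (0.0386 to 2.48) is not resolved at this depth. It was the only member short of the 20 counts needed to be called measured.

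**Figure D1:**
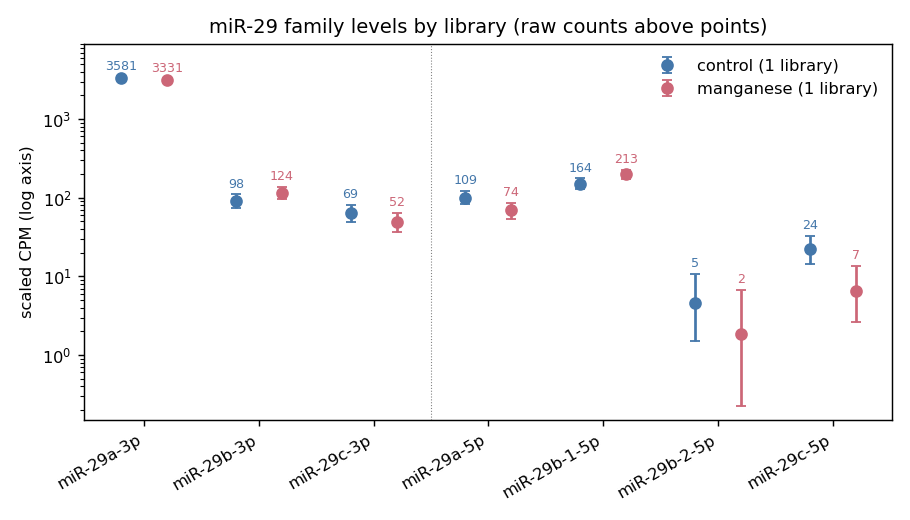
Levels of the 7 miR-29 entries in scaled CPM on a log axis, with the control library in blue and the manganese library in red, exact Poisson 95% intervals as bars and raw counts above the points. Guide arms are left of the dotted line, and miR-29a-3p stands at 3299 and 3114 scaled CPM while the others lie between 1.87 and 199.

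In the control the order of levels in scaled CPM was miR-29a-3p, miR-29b-1-5p, miR-29a-5p, miR-29b-3p, miR-29c-3p, miR-29c-5p and miR-29b-2-5p. Within this order the Poisson intervals of miR-29a-5p and miR-29b-3p overlapped, as did those of miR-29b-3p and miR-29c-3p. With manganese miR-29b-3p stood above miR-29a-5p, at 116 (96.4 to 138) against 69.2 (54.3 to 86.8). The intervals of miR-29a-5p and miR-29c-3p then overlapped, as did those of miR-29c-5p and miR-29b-2-5p. The mature arms are 22 to 24 bases long, so no scaling by length was applied.

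Entries were called higher or lower where the fold reached 2 and its interval excluded 1-fold (the rule of size). In these terms 1 of 6 measured members was lower with manganese, miR-29c-5p, and 0 were higher. Over all 403 measured entries 6.45% were lower and 12.9% higher by that rule, and 1 of 6 is too few to set the family apart from this background. The interval lay below 1-fold for 3 of the 6, miR-29a-3p, miR-29a-5p and miR-29c-5p, against 28.5% of all measured entries. It lay above 1-fold for 1 of the 6, miR-29b-1-5p, against 21.3%. These tallies depended on the scaling. Without the 5 most abundant entries in the totals, and likewise without the blood cell markers, the interval lay below 1-fold for miR-29c-5p alone, beside 76 of the 403 measured entries. It then lay above 1-fold for miR-29a-3p, miR-29b-3p and miR-29b-1-5p, beside 121 of the 403. The 6 members had a median log2 fold of −0.24, with a range of −1.76 to 0.40, beside −0.08 over the whole measured set.

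Summed over all 7 entries, the family reached 4050 counts in the control against 3803 after manganese, 0.381% (0.369 to 0.393) and 0.349% (0.338 to 0.360) of the library. The fold of the sum was 0.953 (0.911 to 0.996), and without miR-29a-3p it was 1.02 (0.897 to 1.16). The side of 1 of the full sum depended on the scaling, at 1.08 without the 5 most abundant entries in the totals. The 5p arms together had 302 and 296 counts, a fold of 0.994 (0.844 to 1.17), so that the lower miR-29a-5p and miR-29c-5p and the higher miR-29b-1-5p gave nearly equal sums.

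**Figure D2:**
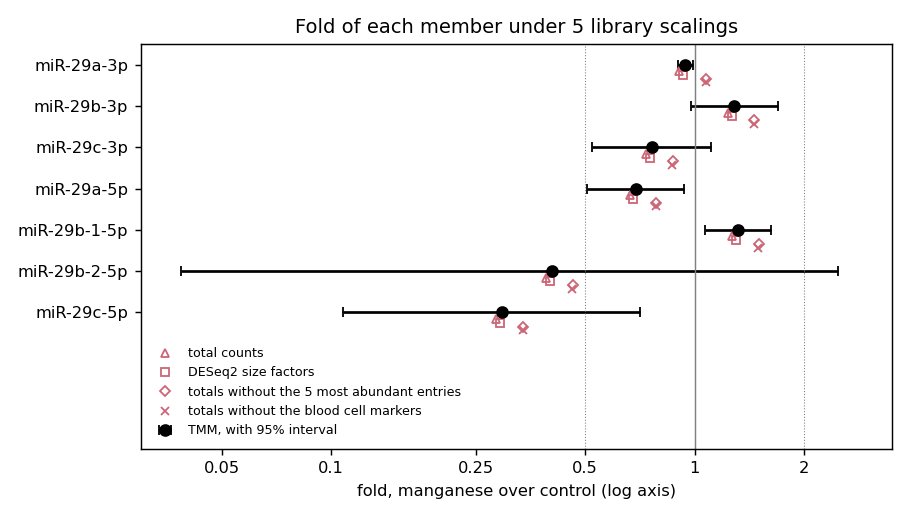
Fold of each miR-29 entry, manganese over control, on a log axis, with the TMM-scaled value and its exact 95% interval in black and the same fold under the other 4 scalings as open red marks. The points of miR-29b-3p and miR-29b-1-5p lie above 1 and those of miR-29a-5p, miR-29c-3p, miR-29c-5p and miR-29b-2-5p below 1 under all 5 scalings, whereas miR-29a-3p changes sides.

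**Figure D3:**
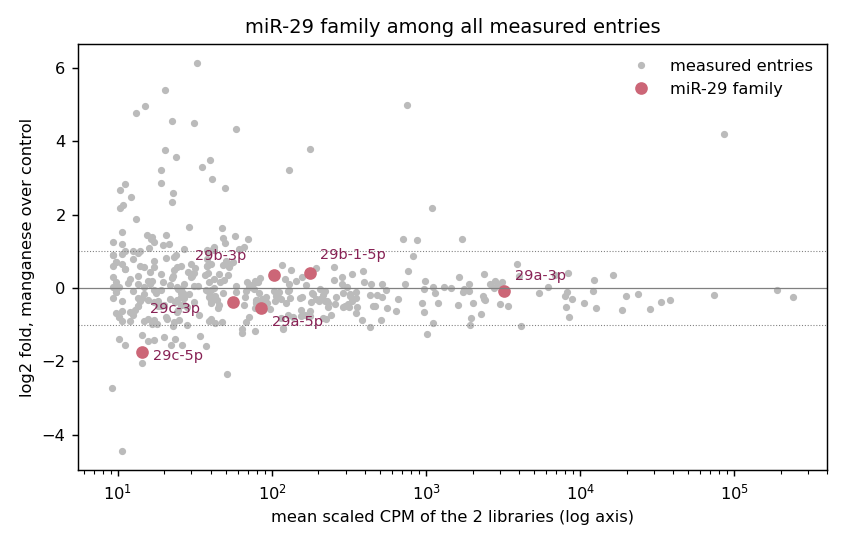
The log2 fold of the 403 measured entries against their mean scaled CPM (log axis), with the 6 measured miR-29 entries in red and dotted lines at 2-fold. miR-29a-3p lies at −0.08 among abundant entries, and miR-29c-5p, at −1.76, lies among entries of low level, where the cloud is wide.

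Comparison of the loci rests on arms that can come from 1 of them alone, and within-library ratios of such arms do not depend on the scaling. Arms made only on chromosome 7 (miR-29a-3p, miR-29a-5p and miR-29b-1-5p) gave 3854 control and 3618 manganese counts. Arms made only on chromosome 1 (miR-29c-3p, miR-29c-5p and miR-29b-2-5p) had 98 and 61. Of these, 69 and 52 were miR-29c-3p, which may include misassigned reads of miR-29a-3p, 1 base apart. Every sum and ratio here that uses miR-29c-3p carries that limit, and its size was not tested. In the control library 39.3 counts of chromosome 7 arms fell on each count of chromosome 1 arms, and 59.3 did so in the manganese library. The ratio of chromosome 1 to chromosome 7 arms with manganese was 0.663 times that in the control (exact conditional 95% interval 0.472 to 0.925).

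The same locus shift was computed for passenger and guide arms apart. From 5p arms alone, 29 counts of chromosome 1 stood against 273 of chromosome 7 in the control and 9 against 287 with manganese, a shift of 0.295 (0.121 to 0.656). From guide arms alone, miR-29c-3p over miR-29a-3p, it was 0.810 (0.552 to 1.18), an interval that includes 1. The difference between these shifts was not tested. With an assumed variation of 20% between replicate libraries added for each sum, the interval of the 5p shift became 0.0904 to 0.899, while that of all locus-specific arms widened to 0.284 to 1.54. The 5p shift rests mainly on miR-29c-5p, which gave 24 of the 29 control counts and 7 of the 9 manganese counts.

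Within chromosome 7, the passenger arms of the neighbouring hairpins went apart. Of their counts together, miR-29b-1-5p held 60.1% (54.0 to 65.9) in the control library and 74.2% (68.7 to 79.2) in the manganese library, and these intervals do not overlap. The shift of their ratio was 1.91 (1.32 to 2.79), or 0.808 to 4.53 once a variation of 20% between replicates is assumed. Within chromosome 1, miR-29b-2-5p and miR-29c-5p stood at 5 and 24 control counts and at 2 and 7 after manganese, and the shift of their ratio, of 1.37 (0.107 to 10.9), was not resolved at this depth. Ratios of miR-29b-3p to the other guide arms also shifted above 1, but they are not within-locus ratios, since this arm is made at both loci. The shift of miR-29b-3p over miR-29a-3p was 1.36 (1.03 to 1.80) and that of miR-29b-3p over miR-29c-3p was 1.68 (1.05 to 2.69). Both include 1 once variation of 20% is assumed. In all, 11 such ratios were computed, many of them sharing entries, and 6 had counting intervals that excluded 1, with no adjustment for their number.

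**Figure D4:**
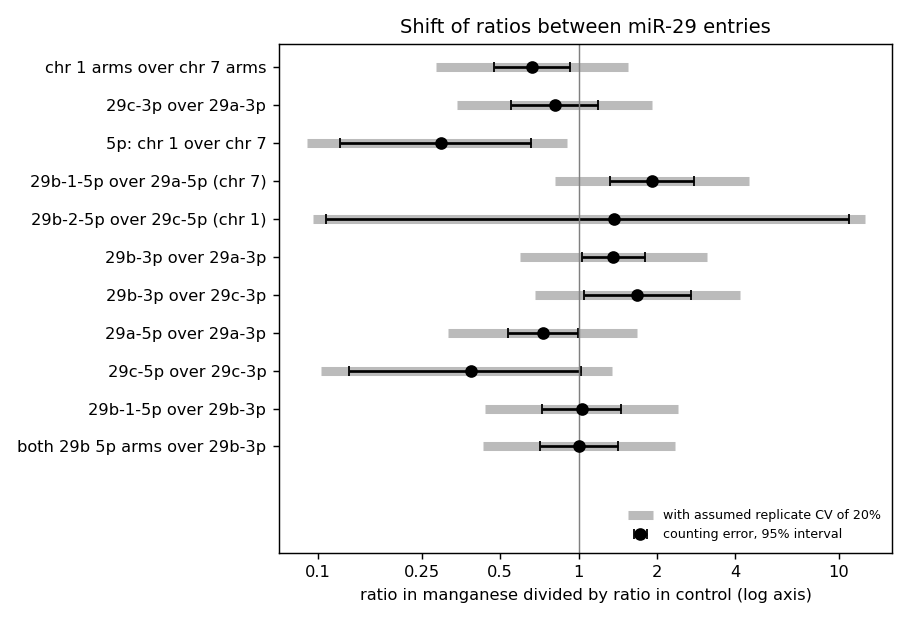
Shift of 11 ratios between miR-29 entries, as the ratio with manganese divided by the ratio in the control on a log axis, with exact 95% intervals for counting error in black and the interval under an assumed replicate variation of 20% as grey bars. The grey bar excludes 1 for a single ratio, that of chromosome 1 to chromosome 7 passenger arms, at 0.295.

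Use of the arms differed widely among the hairpins. The 5p arm held 2.95% (2.43 to 3.55) of the miR-29a counts of the control and 2.17% (1.71 to 2.72) with manganese. For miR-29c it held 25.8% (17.3 to 35.9) and 11.9% (4.91 to 22.9), with the same limit on the reads of miR-29c-3p. For miR-29b the nominal passenger outnumbered the guide, since both 5p arms together had 169 and 215 counts against 98 and 124 of miR-29b-3p. They held 63.3% (57.2 to 69.1) of control and 63.4% (58.05 to 68.6) of manganese miR-29b counts, almost all of it miR-29b-1-5p. How reads of miR-29b-3p, which match both loci, were counted is not stated, and the effect on these shares was not tested.

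The 5p to 3p ratio of miR-29b had a shift of 1.01 (0.711 to 1.42). For miR-29a the shift was 0.730 (0.534 to 0.994), and for miR-29c it was 0.387 (0.131 to 1.02), an interval that just includes 1. The background was 83 hairpin names whose 5p and 3p entries had the same name and were both measured. Some of these names, such as let-7a, also have a copy-numbered 3p entry counted apart, so their ratio is not that of a single hairpin. Of the 83, 9.64% had a 5p to 3p ratio at least 2-fold lower with manganese and 8.43% one at least 2-fold higher, with intervals that exclude 1. Where an arm was at 0, the interval bound nearest to 1 stood for the shift. Neither miR-29a nor miR-29c was among them. The interval of miR-29a lay below 1, as did those of 21.7% of the hairpins, while 20.5% had one above 1. In order of the shift, 4 of the 83 had a lower shift than miR-29c and 25 a lower one than miR-29a. The median log2 shift of the 83 was −0.15.

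**Figure D5:**
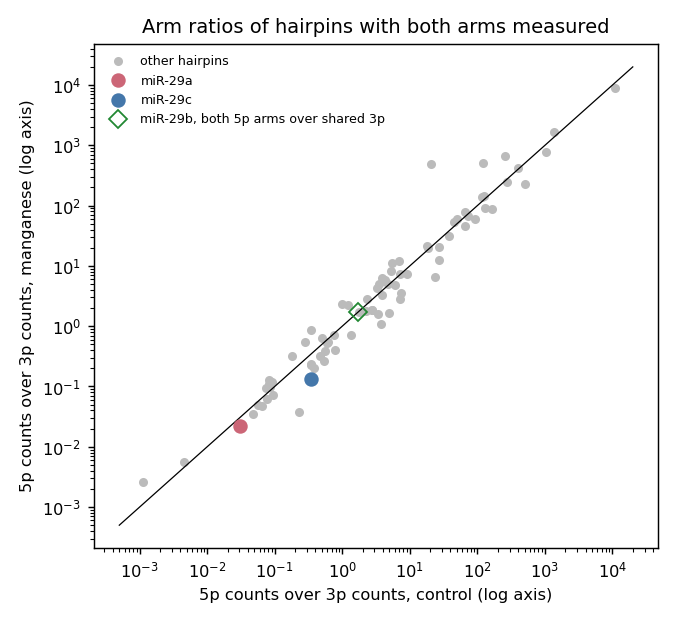
Ratio of 5p to 3p counts in the control against that with manganese, both on log axes, for hairpin names with both arms measured (grey), with miR-29a in red, miR-29c in blue and miR-29b as an open green diamond. The line marks equality; miR-29a and miR-29c lie below it and miR-29b on it, and 2 hairpins with an arm at 0 counts in a library are not drawn.

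Entries with a profile most like that of the dominant arm were sought among 25 measured entries whose mean level was within 2-fold of that of miR-29a-3p. Over the 2 libraries, the nearest in log2 fold were miR-125b-5p, miR-574-5p and let-7i-5p. The counts of miR-125b-5p were 2121 and 1981, a fold of 0.948 (0.891 to 1.01). Those of miR-574-5p were 1962 and 1796, and those of let-7i-5p 6125 and 5513, with folds of 0.929 and 0.913. The log2 folds of these entries were within 0.048 of that of miR-29a-3p, and 2 libraries cannot single out entries beyond that.

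Other miRNAs known to be repressed by MYC, as the miR-29 family is, had a median fold near that of all entries, with members spread on either side of it. All 15 on that list were measured, 1 was higher by the rule of size and 0 lower, beside 12.9% and 6.45% of all 403 measured entries. The most abundant were let-7a-5p, with 210027 and 199234 counts and a fold of 0.962, and let-7f-5p, with 84857 and 73471 counts and a fold of 0.878. The single higher member, miR-150-5p, had 1 and 42 counts and is also on the blood cell list. It was measured only through its manganese counts. The list's median log2 fold was −0.11, with a range of −0.81 to 5.41, beside a median of −0.08 for all measured entries.

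Of 14 miRNAs known to restrain fibrosis, 11 were measured, 2 were higher and 2 lower. Over all 403 measured entries 12.9% were higher and 6.45% lower, and so few members cannot be set apart from those shares. The higher ones were miR-486-5p, with 9597 and 174822 counts, and the epithelial miR-200b-3p, with 32 and 74. Those lower were miR-19a-3p, with 1554 and 648 counts, and miR-19b-3p, with 2813 and 1369. Only 1 was lower when the totals left out the 5 most abundant entries or the blood cell markers. The other most abundant member, miR-30a-5p, stood at 40970 control and 31232 manganese counts (0.773-fold, 0.762 to 0.785). The list's median log2 fold was −0.20, beside −0.08 for all measured entries. Of 9 miRNAs known to promote fibrosis, 5 were measured, with a median of 0.04. The most abundant, miR-21-5p, had 285179 and 235815 counts (a fold of 0.839), miR-155-5p had 2811 and 3180 (1.15), and 1 was higher by the rule, miR-96-5p with 4 and 22 counts.

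Other miRNAs known to target DNA methyltransferases numbered 7, of which 6 were measured, with 1 higher and 0 lower. Over all 403 measured entries 12.9% were higher and 6.45% lower, and 1 of 6 cannot be set apart from those shares. The list's median log2 fold was 0.03, beside −0.08 for all measured entries. The most abundant were miR-152-3p, with 1061 and 1022 counts (0.977, 0.896 to 1.07), and miR-101-3p, with 249 and 214 (0.872, 0.723 to 1.05). The higher member was the mesenchymal marker miR-143-3p, with 26 and 354 counts. Of the marker lists, 5 of 5 measured blood cell, 2 of 2 mesenchymal, 2 of 3 epithelial and 1 of 1 endothelial members were higher by the rule. The share over all 403 measured entries was 12.9%. Members that were not measured are outside these tallies. Among them, the endothelial miR-126-5p was at 11 and 8 counts and the mesenchymal miR-145-5p at 2 and 2. The epithelial miR-200c-3p (3 and 7), miR-205-5p (3 and 11) and miR-141-3p (0 and 2) had more counts with manganese. So did the blood cell miR-142-3p (1 and 4) and miR-144-3p (0 and 4). Besides miR-486-5p and miR-150-5p, the blood cell members passing the rule were miR-451a at 50 and 1564 counts, miR-223-3p at 4 and 47 and miR-142-5p at 7 and 42. The filter sums both libraries, so miR-223-3p, miR-142-5p and miR-150-5p were measured only through their manganese counts. The tally of 5 of 5 is therefore partly set by the filter. The second mesenchymal entry, which joins miR-199a-3p and miR-199b-3p, was at 25 and 76, and the endothelial miR-126-3p at 19 and 39. Next to miR-200b-3p, the epithelial miR-429 was at 29 and 60 and passed the rule, while miR-200a-3p, the epithelial marker with the highest sum of both libraries, was at 45 and 70 and did not.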

How the data were processed

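The authors deposited whole-number counts of mature miRNA entries, each library in its own column, and a second table with a score per entry that equalled manganese minus control counts in 2904 of 2904 entries of the authors' deposited table. Per the submitters' processing notes, hg38 was used. The aligner, counter, annotation and filters were not given in the sources used here.

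Counts were scaled with TMM factors (edgeR 4.0.16, R 4.3.3) of 1.02 for the control and 0.981 for the manganese library. Folds have exact conditional binomial and ratio shifts exact conditional odds-ratio 95% intervals (scipy 1.17.1, numpy 2.4.6, pandas 2.3.3, Python 3.11.15). All intervals cover counting error only. A count of 0 entered list medians as a floor of 3 counts. Alternatives were total counts, DESeq2 1.42.0 size factors, totals without the 5 most abundant entries or the blood cell markers, other filters and rules of size, and an assumed replicate variation of 20%. The rules were tested on simulated Poisson counts with no replicate variation and no scaling error, so that test covers counting error only.

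Members and lists were chosen with earlier results of these data known. Named entries were all members, the 2 most abundant and every passing member of each list (at least 20 counts), and the 3 entries most like miR-29a-3p. Seeds were matched for 2264 of 2565 human entries.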

Additional observations from a re-analysis of the deposited data

How the results depend on the processing

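Each group held 1 library, so no replicate could be left out. No paired analysis was possible because each group holds a single library. No called value changed direction in the alternatives run, and of 185 alternative values 169 stayed within the error or the side of the rule of the reported one. Some of these could not move. The scaling cannot change a list median relative to that of all entries, and assumed variation widens an interval but leaves its value. Under that variation the intervals of the locus, chromosome 7 within-locus and miR-29a arm shifts came to include 1. The last was 0.316 to 1.68. They were still counted among the 169. Totals that left out the 5 entries with the highest counts gave folds of 1.07 for miR-29a-3p, 1.08 for the family sum and 1.08 for the 3p sum, and leaving out the blood cell markers gave 1.07, 1.08 and 1.08, so these folds near 1 have no settled direction. Those totals also turned the tally of members whose interval excludes 1-fold, from 3 below and 1 above to 1 below and 3 above, and left 1 of 2 lower members of the fibrosis-restraining list. The fold of the family sum without miR-29a-3p was 1.02. The count of members lower by the rule, 1 in the reported setting, was 0 with a filter of 100 counts, since miR-29c-5p has 31 in all, and 0 where even the bound nearest to 1 had to be at least 2-fold. The locus shift passed the rule of 2-fold from 5p arms only, at 0.295. The interval of the fold of miR-29c-5p was 0.0937 to 0.829 with an assumed variation of 20% between replicates. Those of miR-29b-1-5p (0.732 to 2.37), miR-29a-5p (0.367 to 1.29) and miR-29a-3p (0.544 to 1.64) came to include 1. Within-locus ratios under that assumption were added after the data were seen. Depth limits the chromosome 1 passenger arms most, at 24 and 7 counts or fewer.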
